A study of Mus musculus with 4 samples.

Results

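The 10 immediate early genes described here, the stress-responsive transcription factors and a feedback phosphatase that cells switch on at once when disturbed, were Fos, Fosb, Jun, Junb, Egr1, Atf3, Nr4a1, Ier2, Dusp1 and Klf6. They were chosen by symbol, and all 10 were found among the 32285 features of the matrices. Single cells of mouse ascites had been profiled in 4 libraries, 2 labelled siCont and 2 labelled siFXR1-LNA. The libraries came from female FVB mice sampled 6 weeks after injection of Br-Luc tumor cells, which lack p53 and Brca1 and carry Myc and a myristoylated Akt. The mice had received either a control siRNA or an siRNA against Fxr1, both with locked nucleic acid (LNA) bases and carried by jetPEI, and the ascites of several mice was pooled per library. Red cells were lysed with ACK buffer. All groups carry the same tumor line. The question asked of these genes was in which cells of the ascites they were read, and whether their level differed between the libraries with these labels.

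Immediate early genes are transcribed within minutes of a stimulus, without new protein synthesis, when mitogen-activated protein kinases act on factors already bound at their promoters. Fos, Fosb, Jun and Junb encode subunits of the dimeric factor AP-1, and Atf3 encodes a related leucine zipper protein that is also induced by the integrated stress response. Egr1 and Klf6 encode zinc finger factors, Nr4a1 an orphan nuclear receptor, Ier2 a nuclear protein and Dusp1 a phosphatase that switches the kinases off again. In myeloid and lymphoid cells these genes respond to pattern recognition receptors, cytokines and antigen receptors, and they also respond to handling of tissue.

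Many of these promoters carry a cAMP response element, a site that factors of the CREB and ATF families can bind, and the 6 stretches below show where its letters stood in the members. They are RefSeq sequence of build GRCm38.p6, read 5′ to 3′ on the strand of the gene, and the capitals mark the element TGACGTCA or its core TGACG, written CGTCA where it lay on the opposite strand.
Fos, chr12:85473804-85473848, plus strand: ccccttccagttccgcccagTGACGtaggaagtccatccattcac
Fosb, chr7:19310081-19310125, minus strand: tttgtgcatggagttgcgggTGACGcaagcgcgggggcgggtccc
Junb, chr8:84978830-84978874, minus strand: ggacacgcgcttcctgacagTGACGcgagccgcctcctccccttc
Atf3, chr1:191183334-191183360, minus strand: ggaagctattaatagcattaCGTCAgc
Nr4a1, chr15:101266786-101266830, plus strand: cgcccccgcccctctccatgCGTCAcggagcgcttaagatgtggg
Dusp1, chr17:26508588-26508635, minus strand: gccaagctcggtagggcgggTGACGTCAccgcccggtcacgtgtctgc
The table of promoters held 8 of the 10 members, without Egr1 and Ier2. In the 250 bases before the start, searched on both strands, the core TGACG was found in 6 of the 8 and in 17.8% of all 32851 promoters. Nr4a1 held it 4 times, the copy shown starting 40 bases upstream, and the copy of Fos shown starts 66 bases upstream. The whole element TGACGTCA, which contains the core on both strands, was found only in Dusp1 among the members and in 1.55% of all promoters. The AP-1 letters TGANTCA and the CArG box of serum response factor were in none of the 8 windows, against 6.75% and 1.47% of all promoters. Such a match is a description of letters and not a binding site.

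The matrices held between 17309 and 54665 barcodes and between 78179267 and 113606837 unique molecular identifiers (UMIs, 1 per captured transcript) per library. After the filter on genes and mitochondrial UMIs, 16874 to 54344 cells per library were kept, with a median of 1349 to 2653 UMIs per cell. Pairs of libraries shared between 575 and 2846 barcodes among kept cells. The composition differed strongly between the labels. Erythrocytes made up 61.0% and 62.9% of the siCont cells but 0.037% and 0.344% of the siFXR1-LNA cells, while a shallow unnamed cluster led by Sprr1a and Cldn3 made up 0.143% and 0.179% against 75.5% and 32.0%. Levels are given as CPM, the UMIs of a gene scaled to one common total in every sum of cells. The targeted gene Fxr1 had 55.8 and 33.9 CPM over all cells of the siCont libraries and 104 and 71.8 CPM over those of the siFXR1-LNA libraries. These levels mix cell types whose shares differed. In macrophages Fxr1 had 65.55 and 61.1 CPM against 73.4 and 68.75 CPM, and in mature and plasmacytoid dendritic cells and erythrocytes the labels overlapped. Since Fxr1 over all cells went against the labels, the groups are called below the libraries labelled siCont and the libraries labelled siFXR1-LNA. Their replicates are named siCont 1, siCont 2, siFXR1-LNA 1 and siFXR1-LNA 2.

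Over all kept cells, 9 of the 10 members were higher in both libraries labelled siFXR1-LNA than in both labelled siCont. For how many of all genes this was so was not counted, and Fxr1 was also among them. Hemoglobin genes took 29.55% and 41.1% of the UMIs of siCont 1 and 2 and 10.0% and 9.1% of those of siFXR1-LNA 1 and 2. Dusp1 had 10.8 and 37.2 CPM in siCont 1 and 2 and 154 and 341 CPM in siFXR1-LNA 1 and 2. Fos had 10.2 and 15.1 CPM against 62.3 and 104 CPM. The exception was Junb, whose 77.0 and 92.9 CPM overlapped with 80.3 and 228 CPM. Such levels mix cell types whose shares differed between the labels, so all comparisons below were made within a cell type, on UMIs summed over its cells in each library.

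**Figure D1:**
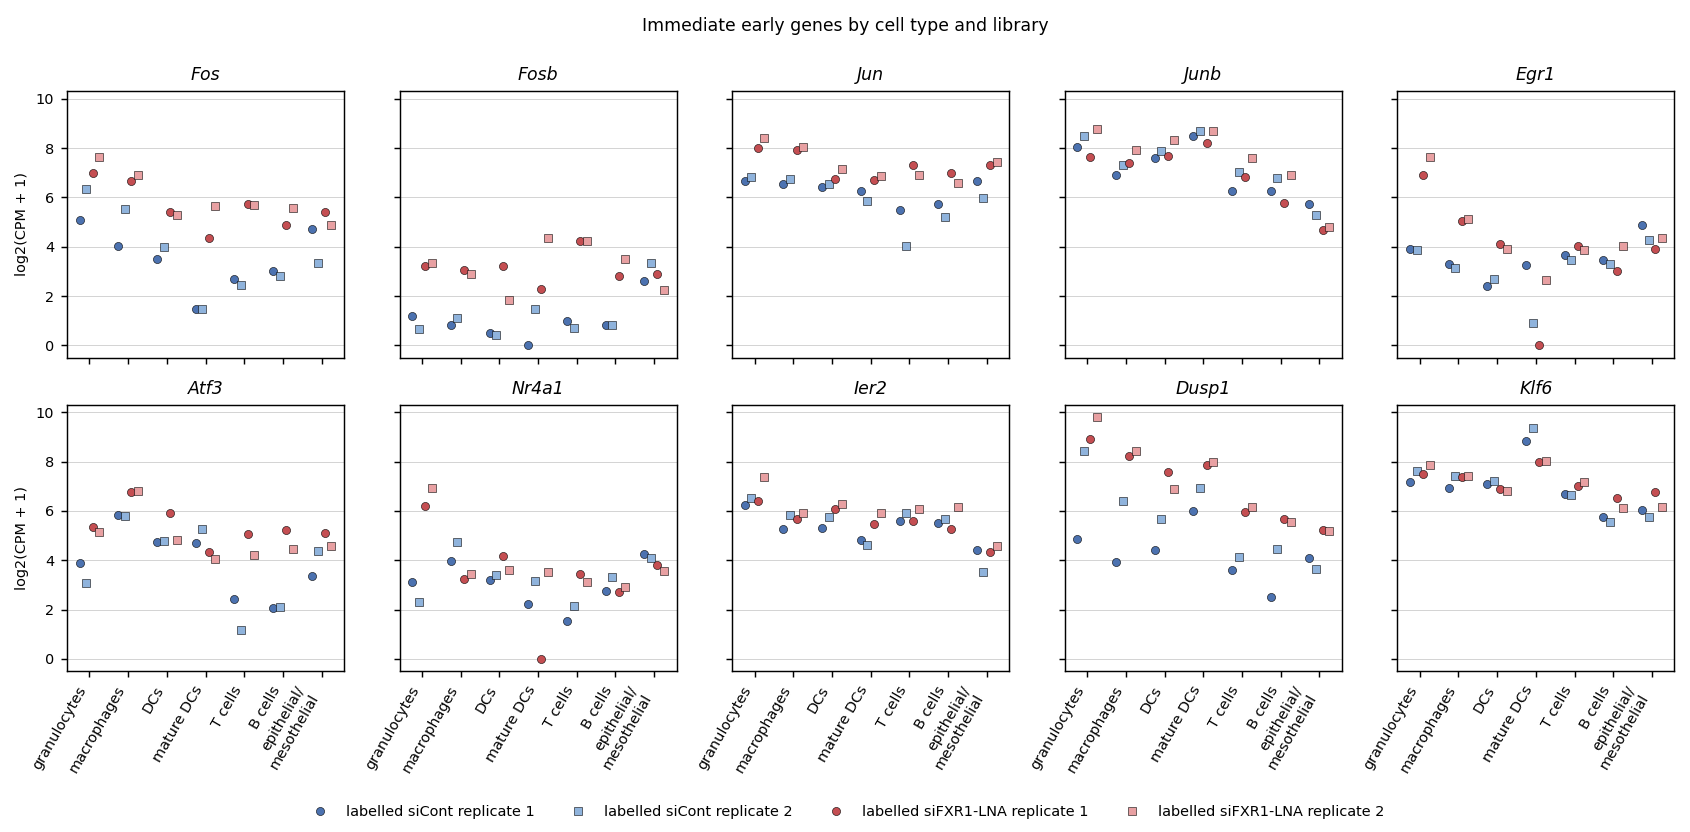
Level of each of the 10 genes (vertical axis, log2 of CPM plus 1) in 7 cell types (horizontal axis) in the 4 libraries, 1 point per library, blue for the labels siCont and red for siFXR1-LNA, circles for replicate 1 and squares for replicate 2. Red points of Fos, Jun and Dusp1 lie above the blue points in macrophages, T cells and B cells, and those of Egr1 and Nr4a1 stand highest in granulocytes.

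Granulocytes had the highest mean level over the 4 libraries for 6 members, namely Fos, Jun, Egr1, Nr4a1, Ier2 and Dusp1. For Egr1, Nr4a1 and Ier2 this order rested on the libraries labelled siFXR1-LNA. In the siCont libraries the mean of Egr1 was 23.5 CPM in epithelial/mesothelial cells and 13.8 CPM in granulocytes. That of Nr4a1 was 20.1 CPM in macrophages against 7.64 and 3.99 CPM in the granulocyte libraries. That of Ier2 was 94.4 CPM in mast cells, from only 8 and 11 UMIs, and 83.7 CPM in granulocytes. Over all 4 libraries, the mean of Dusp1 was 441 CPM in granulocytes (SD 363, n = 4), 185 CPM in macrophages (SD 161, n = 4) and 167 CPM in mature dendritic cells (DCs; SD 89.8, n = 4), and the ranges of these neighbours overlapped. Egr1 had a mean of 86.9 CPM in granulocytes (SD 90.5, n = 4), and that of the next type, mast cells, was 22.3 CPM (SD 16.1, n = 4), again with overlapping ranges. The mast cell values of Egr1 came from only 2, 1, 4 and 1 UMIs in siCont 1, siCont 2, siFXR1-LNA 1 and siFXR1-LNA 2. Atf3 was highest in macrophages, with a mean of 82.4 CPM (SD 31.0, n = 4), followed by DCs with 34.8 CPM (SD 16.4, n = 4), and the ranges overlapped here too.

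Junb and Klf6 had another order, with mature DCs at the top. This cluster was led by Ccl22 and Fscn1, genes of DCs that migrate to lymph nodes. Klf6 had a mean of 406 CPM there (SD 192, n = 4), and its lowest library, at 252 CPM, lay above the highest granulocyte library, at 231 CPM. Junb had a mean of 372 CPM in mature DCs (SD 54.9, n = 4) and 315 CPM in granulocytes (SD 106, n = 4), with overlapping ranges. Fosb had the highest mean in mast cells, 14.7 CPM, which came from 4 UMIs in a single library. These levels are a description, since the cells had been clustered on all genes.

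For each cell type with at least 10 cells in every library, the sums were compared between the labels with edgeR's quasi-likelihood test, adjusted over all genes tested in that type by the Benjamini-Hochberg method. Of 78 tests of a member in a cell type, 13 passed an adjusted p of 0.05, with 12 rises and 1 fall in the libraries labelled siFXR1-LNA. The 13 belonged to 8 members, all but Junb and Ier2. The share of all genes that passed was 18.1% in macrophages, 7.17% in epithelial/mesothelial cells, 3.7% in mature DCs, 2.85% in granulocytes, 2.4% in DCs, 0.355% in T cells and 0.156% in B cells, and the members' counts below are to be read against these shares. In 3 further types no member passed edgeR's test or DESeq2's. There 0 of 1 member tested in mast cells, 1 of 1 in plasmacytoid DCs and 1 of 9 in erythrocytes had an unadjusted p under 0.05 by edgeR, and 1.83%, 1.58% and 0% of all genes were called. In the 7 types shown in the plot of levels, both libraries labelled siFXR1-LNA lay above both labelled siCont in 45 of 67 tests of a member. The same was so in 30.0% of the 82131 tests of all genes. The p-values measure only the spread between these libraries.

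**Figure D2:**
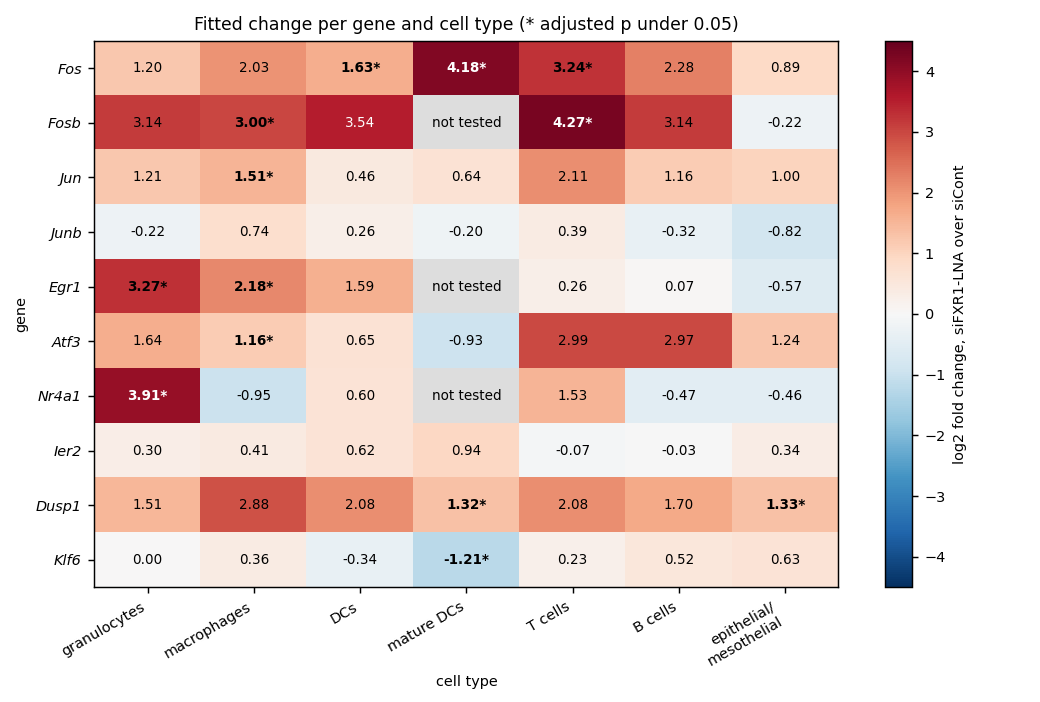
Fitted log2 fold change of each gene (rows) in 7 cell types (columns), libraries labelled siFXR1-LNA over those labelled siCont, with red for higher and blue for lower. An asterisk marks an adjusted p under 0.05 in edgeR's test, and grey fields had too few UMIs to be tested. The row of Dusp1 is red in every type, and the rows of Junb and Ier2 hold no asterisk.

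In macrophages, 4 of the 10 members rose, Jun, Fosb, Egr1 and Atf3. Jun had 91.3 and 108 CPM in siCont 1 and 2 and 240 and 261 CPM in siFXR1-LNA 1 and 2. Egr1 had 8.84 and 7.72 CPM against 32.1 and 33.9 CPM, and Atf3 had 56.2 and 55.1 CPM against 108 and 110 CPM. In each of the 3 genes the replicates of a label lay close together and the labels did not overlap. The log2 fold change was 1.51 for Jun (SE 0.16, adjusted p = 0.00919 by edgeR), 2.18 for Egr1 (SE 0.13, adjusted p = 0.00486) and 1.16 for Atf3 (SE 0.11, adjusted p = 0.008). Fosb, the least abundant, had 17 and 20 UMIs against 167 and 210 UMIs, or 0.759 and 1.19 CPM against 7.30 and 6.39 CPM, a log2 fold change of 3.00 (SE 0.33, adjusted p = 0.0105).

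Dusp1 and Fos did not pass the test in macrophages, although their labels did not overlap either. Dusp1 had 14.2 and 83.9 CPM in siCont 1 and 2 and 297 and 345 CPM in siFXR1-LNA 1 and 2, a log2 fold change of 2.88 (SE 0.84, adjusted p = 0.0744 by edgeR). Fos had 15.5 and 45.3 CPM against 100 and 120 CPM, a log2 fold change of 2.03 (SE 0.52, adjusted p = 0.0563). In both genes siCont 1 was far below siCont 2. Both passed with DESeq2 (adjusted p = 0.031 for Dusp1 and 0.0307 for Fos), where 21.5% of all genes passed. In edgeR both passed with the replicate number as a block (0.0116 and 0.00676), where 26.6% of all genes did. They also passed with no filter on low counts (17.6%). Replicate numbers were not known to pair the libraries, and with the numbers crossed 7.85% of all genes passed. Without siCont 1 or without siCont 2 the log2 fold change of Dusp1 was 2.08 or 4.72. Nr4a1 went the other way, with 14.8 and 25.3 CPM against 8.39 and 9.97 CPM and a log2 fold change of -0.95 (SE 0.31, adjusted p = 0.0929). Without siFXR1-LNA 1, none of the 10 members passed and 0.0941% of all genes did, with adjusted p-values of 0.0522 for Egr1, 0.0557 for Atf3, 0.0564 for Jun and 0.0794 for Fosb and log2 fold changes between 1.19 and 2.92. Without siFXR1-LNA 2, Jun had an adjusted p of 0.0507 and Fosb of 0.058 by edgeR, and the other pair still passed, as did 2.98% of all genes. Without siCont 1 the log2 fold changes were 2.24 for Egr1, 1.13 for Atf3, 1.37 for Jun and 2.67 for Fosb. Without siCont 2 they were 2.12, 1.17, 1.67 and 3.38.

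The cells called macrophages came from 2 clusters with different shares under the labels. Cluster 3, led by Retnla and Alox15, held all 4253 macrophages of siCont 1 and 2069 of the 2070 of siCont 2. It held 36.1% of those of siFXR1-LNA 1 and 40.3% of those of siFXR1-LNA 2. Cluster 6, led by Nos2, which encodes inducible nitric oxide synthase, held the others, 2532 and 2205 siFXR1-LNA cells and 1 cell of siCont 2. Within cluster 3 none of the 10 members passed edgeR's test, and 3 had an unadjusted p under 0.05. There 0% of the 13337 genes tested were called, against 2251 with an unadjusted p under 0.05. Dusp1 had 14.2, 83.9, 122 and 50.2 CPM in siCont 1, siCont 2, siFXR1-LNA 1 and siFXR1-LNA 2, and Fos had 15.5, 45.3, 50.3 and 33.3 CPM, so both overlapped. The 4 genes that rose in all macrophages had been picked on sums that held nearly the same siCont cells, so their levels in cluster 3 are a description. Egr1 had 8.84 and 7.72 CPM in siCont 1 and 2 and 13.1 and 18.9 CPM in siFXR1-LNA 1 and 2, a log2 fold change of 0.94 (adjusted p = 0.18 by edgeR). Jun had 91.3 and 108 CPM against 135 and 135 CPM (0.43, adjusted p = 0.276), and Fosb had 17 and 20 UMIs against 27 and 14 UMIs, or 0.759 and 1.19 CPM against 4.60 and 1.33 CPM (1.57, adjusted p = 0.361). The changes of these genes were smaller than over all macrophages. Atf3 had 56.2 and 54.7 CPM in siCont 1 and 2 and 49.6 and 37.1 CPM in siFXR1-LNA 1 and 2, a log2 fold change of -0.37. A finer cluster with Ace and Cd300e in its lead held 24.7% and 34.4% of the macrophages of siCont 1 and 2 and none labelled siFXR1-LNA. The labels were thus not matched within cluster 3. The finer cluster led by Cmklr1 and Alox15 had cells in every library. There 0 of 10 members and 0% of 12689 genes were called, and 2 members had an unadjusted p under 0.05. The log2 fold changes were 1.23 for Egr1, 1.12 for Fosb, 0.60 for Jun, -0.10 for Atf3 and -0.05 for Nr4a1.

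In cluster 6, Dusp1, Fos, Jun, Atf3, Egr1 and Fosb stood higher. Dusp1 had 358 and 484 CPM in siFXR1-LNA 1 and 2, Fos 117 and 161 CPM, Jun 277 and 321 CPM, Atf3 129 and 145 CPM, Egr1 38.6 and 41.0 CPM and Fosb 8.23 and 8.78 CPM. For each of the 6, both values exceeded those of cluster 3 in every library. Both clusters were found on all genes, these members included, so the gap between them is a description. The share of cluster 6 thus differed between the labels beside the levels of these genes. Its part in their rise was not tested beyond the fits of cluster 3 and of the finer cluster led by Cmklr1. A small finer cluster with cycling genes such as Kif15 and Pclaf in the lead, with 162, 123, 25 and 43 cells, gave 6 calls among 8 members tested, where 4.88% of all genes were called. In it Fos had 19.4 and 47.7 CPM in siCont 1 and 2 and 93.3 and 148 CPM in siFXR1-LNA 1 and 2, a log2 fold change of 2.00, from 22 to 74 UMIs per library.

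**Figure D3:**
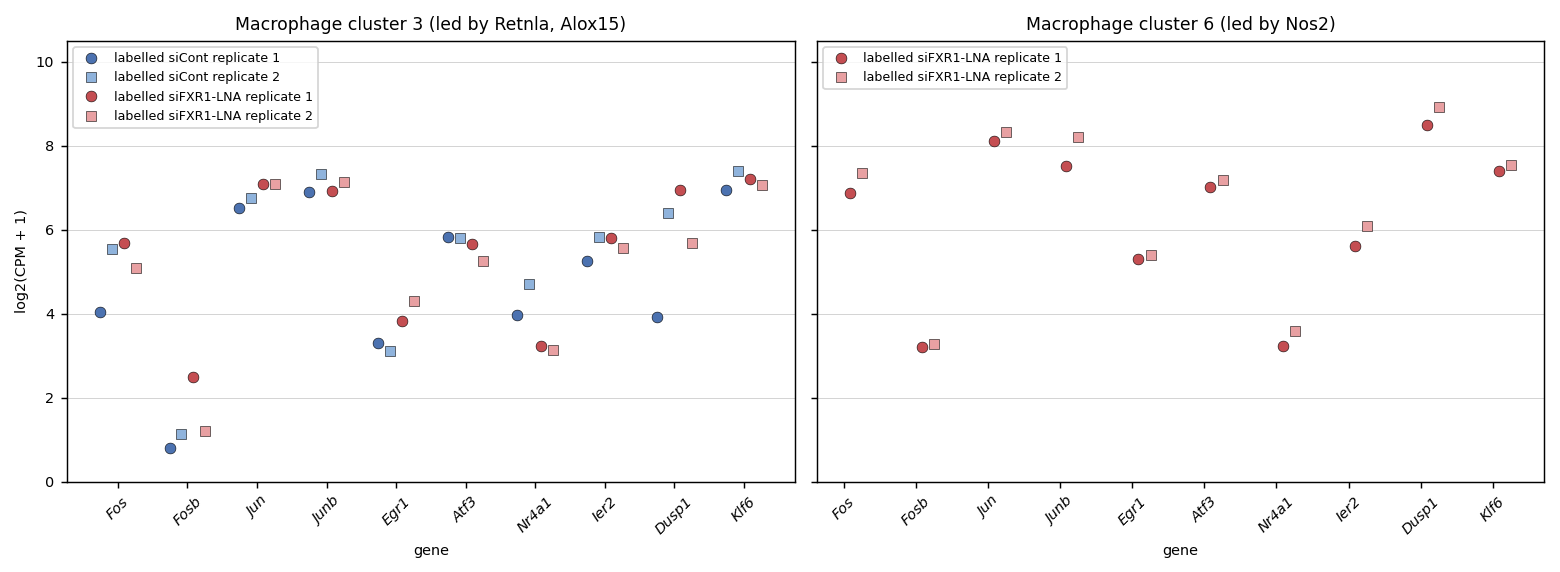
Level of the 10 genes (horizontal axis) as log2 of CPM plus 1 (vertical axis) in the macrophage clusters 3 and 6, 1 point per library, blue for siCont and red for siFXR1-LNA. In cluster 3 the red and blue points of Dusp1, Fos and Klf6 interleave while those of Jun, Egr1 and Fosb do not, and in cluster 6, where siCont libraries had at most 1 cell and are not drawn, Dusp1, Fos, Jun and Atf3 lie higher than in cluster 3.

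In granulocytes, Egr1 and Nr4a1 rose. Egr1 had 14.0 and 13.7 CPM in siCont 1 and 2 and 120 and 200 CPM in siFXR1-LNA 1 and 2, a log2 fold change of 3.27 (SE 0.48, adjusted p = 0.00714 by edgeR). Nr4a1 had 7.64 and 3.99 CPM against 72.8 and 119 CPM, a log2 fold change of 3.91 (SE 0.52, adjusted p = 0.00514). The siCont values came from 11 and 24 UMIs of Egr1 and from 6 and 7 UMIs of Nr4a1, and with no filter on low counts both missed the threshold (log2 fold changes 3.35 and 3.98, adjusted p = 0.212 for each by edgeR), as did all 20049 genes tested under that setting, 2143 of them with an unadjusted p under 0.05. Atf3 had 14.0 and 7.40 CPM against 39.6 and 34.5 CPM, Jun 102 and 114 CPM against 257 and 339 CPM, and Fos 33.1 and 79.1 CPM against 125 and 202 CPM. These 3 and Fosb, with 1 and 1 UMIs against 94 and 107 UMIs, had labels that did not overlap and did not pass, with adjusted p-values between 0.0549 and 0.268.

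The most abundant member of granulocytes, Dusp1, had 28.0 and 346 CPM in siCont 1 and 2 and 487 and 904 CPM in siFXR1-LNA 1 and 2. The labels did not overlap, but siCont 1 lay far below siCont 2, and the log2 fold change of 1.51 (SE 0.87, adjusted p = 0.408 by edgeR) did not pass. Without siCont 2 it was 4.57 (adjusted p = 2.01e-09), without siCont 1 it was 0.69 (adjusted p = 0.382) and without siFXR1-LNA 2 it was 0.98 (adjusted p = 0.802). Junb, Klf6 and Ier2 overlapped between the labels, with log2 fold changes of -0.22, 0.00 and 0.30. Granulocytes also fell into 2 finer clusters by label. The cluster that held 442 and 882 of the siCont cells and 79 and 271 of the siFXR1-LNA cells had none of 9 members called, 2 with an unadjusted p under 0.05, where 0.561% of all genes were called. In it Egr1 had 14.0 and 13.8 CPM against 46.3 and 61.7 CPM, from 15 and 55 UMIs in the libraries labelled siFXR1-LNA, and Nr4a1 had 7.65 and 4.03 CPM against 24.7 and 35.9 CPM.

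In T cells, Fos and Fosb rose. Fos had 5.402 and 4.48 CPM in siCont 1 and 2 and 52.9 and 51.5 CPM in siFXR1-LNA 1 and 2, a log2 fold change of 3.24 (SE 0.29, adjusted p = 0.0146 by edgeR). Fosb had 5 and 4 UMIs against 36 and 54 UMIs, a log2 fold change of 4.27 (SE 0.48, adjusted p = 0.028). The labels were clearly apart in both genes. The call of Fosb was lost without siCont 1 (adjusted p = 0.0501), without siFXR1-LNA 1 (adjusted p = 0.109) and without siFXR1-LNA 2 (adjusted p = 0.0806), with edgeR log2 fold changes between 4.18 and 4.56. Dusp1 had 11 and 16.3 CPM against 60.2 and 69.7 CPM, and Jun had 43.6 and 15.5 CPM against 161 and 121 CPM. Neither overlapped, and with adjusted p-values of 0.061 and 0.198 neither passed. Atf3 had 4.44 and 1.28 CPM against 32.3 and 17.5 CPM (log2 fold change 2.99, adjusted p = 0.172) and Nr4a1 had 1.93 and 3.36 CPM against 9.79 and 7.60 CPM (1.53, adjusted p = 0.356), also apart. The log2 fold changes of Junb, Klf6 and Ier2 were 0.39, 0.24 and -0.07. Egr1, the member with the strongest call in macrophages, had 11.6 and 9.91 CPM against 15.2 and 13.6 CPM in T cells, a log2 fold change of 0.26.

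The T cells of the labels lay in different finer clusters, 1663 and 1781 of the siCont cells in one with 6 and 48 of the siFXR1-LNA cells, and 726 and 513 siFXR1-LNA cells in another with 2 and 6 siCont cells. Another, led by the γδ receptor genes Trdc and Tcrg-C1, had 431, 152, 119 and 449 cells. In these cells 1 of 8 members was called, where 1.1% of all genes were. It was Fos, with 5 and 1 UMIs in siCont 1 and 2 and 19 and 52 UMIs in siFXR1-LNA 1 and 2, or 5.81 and 2.50 CPM against 73.0 and 47.9 CPM, a log2 fold change of 3.40 (adjusted p = 0.0129 by edgeR). The labels again stood apart.

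Free RNA from other cells can add UMIs to a type, and markers of granulocytes moved with the label in T cells. Their 7 markers summed to 71.0 and 449 CPM in the siCont T cells and 702 and 766 CPM in the siFXR1-LNA T cells, which was 0.194%, 0.556%, 2.44% and 1.69% of their level in the granulocytes of the same library. Fos in T cells was at 16.3%, 5.66%, 42.4% and 25.6% of its level in those granulocytes. For Egr1 these shares were 82.7%, 72.6%, 12.7% and 6.77%. The 8 macrophage markers in T cells stood at 4.78%, 1.71%, 8.18% and 9.61% of their level in macrophages, and Fos at 34.8%, 9.89%, 52.9% and 42.9%. Hemoglobin genes and other erythrocyte markers went the opposite way, with 216300 and 181600 CPM in siCont T cells and 75580 and 38270 CPM in siFXR1-LNA T cells. With hemoglobin left out of the totals, 2 members were again called in T cells. The markers were picked for a single cell type, while Fos was read in many types. The shares of Fos and of the markers therefore cannot be compared as measures of free RNA. What part free RNA had in the result was not tested.

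In B cells, none of the 10 members passed edgeR's test, and 5 had an unadjusted p under 0.05, while DESeq2 called 3. Fos had 7.19 and 6.09 CPM in siCont 1 and 2 and 28.3 and 46.1 CPM in siFXR1-LNA 1 and 2, with a log2 fold change of 2.28 (SE 0.32, adjusted p = 0.0841 by edgeR). Atf3 had 3.15 and 3.31 CPM against 36.6 and 20.8 CPM, with a log2 fold change of 2.97 (SE 0.40, adjusted p = 0.0769). These were among the 6 of 10 members with both libraries labelled siFXR1-LNA above both labelled siCont, which was so for 36.4% of the 12190 genes tested in B cells. Granulocyte markers summed to 57.4 and 382 CPM in the siCont B cells and 591 and 678 CPM in the siFXR1-LNA B cells, and their part was not tested. The B cells were split by label as well, and the finer cluster with 50, 54, 806 and 531 cells had 3 of 8 members called, Atf3, Dusp1 and Jun, where 16.4% of all genes were called. Jun had 53.1 and 62.6 CPM in it against 127 and 105 CPM, from 5 and 8 UMIs in the siCont libraries, and Atf3 was at 0 UMIs in both siCont libraries against 66 and 28 UMIs.

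Conventional DCs, which carried Clec9a, Xcr1, Flt3 and Cd209a, had 1 member called of 10. Fos had 10.46 and 14.9 CPM in siCont 1 and 2 and 42.0 and 38.5 CPM in siFXR1-LNA 1 and 2, a log2 fold change of 1.63 (SE 0.25, adjusted p = 0.0331 by edgeR). Its call was lost without siFXR1-LNA 1 (adjusted p = 0.178) and without siFXR1-LNA 2 (adjusted p = 0.082), at log2 fold changes of 1.59 and 1.70, and also without the cells with the highest doublet scores (1.46, adjusted p = 0.0687). With each cell named from its own markers Fos also missed the threshold (1.24, adjusted p = 0.284 by edgeR). Dusp1 had 20.2 and 50.0 CPM against 189 and 116 CPM, with a log2 fold change of 2.08 (adjusted p = 0.0761). Granulocyte markers summed to 111 and 845 CPM in the siCont DCs and 2304 and 1230 CPM in the siFXR1-LNA DCs. Their part in the result was not tested. Of the DCs labelled siCont, 26.3% and 28.7% lay in a finer cluster led by Adam23 and Cd209c that held 76.7% and 79.2% of those labelled siFXR1-LNA. In it 0 of 9 members were called and 5 had an unadjusted p under 0.05, where 1.21% of all genes were called. Fos had a log2 fold change of 1.53 there (adjusted p = 0.104 by edgeR). In the finer cluster led by Xcr1 and Clec9a, 0 of 8 members and 0.529% of all genes were called, with Fos at 0.49.

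Mature DCs had 3 of 7 members called, and they included the only fall. Klf6 had 456 and 658 CPM in siCont 1 and 2 and 252 and 259 CPM in siFXR1-LNA 1 and 2, a log2 fold change of -1.21 (SE 0.24, adjusted p = 0.0185 by edgeR). Dusp1 had 63.6 and 120 CPM against 233 and 251 CPM, a log2 fold change of 1.32 (SE 0.31, adjusted p = 0.0404). Fos had 3 and 2 UMIs against 5 and 28 UMIs, or 1.82 and 1.77 CPM against 19.4 and 49.1 CPM, a log2 fold change of 4.18 (SE 0.65, adjusted p = 0.00602). None of the 3 overlapped between the labels, but Fos rested on 38 UMIs in all. The call of Dusp1 was lost without siCont 1 (log2 fold change 0.93, adjusted p = 0.0913 by edgeR) and without siFXR1-LNA 2 (1.24, adjusted p = 0.0712), and also with the lists left out of the clustering (1.30, adjusted p = 0.104) and with each cell named from its own markers (1.46, adjusted p = 0.0573). Granulocyte markers summed to 64.2 and 375 CPM in the siCont mature DCs and 551 and 844 CPM in the siFXR1-LNA ones, and their part was not tested. Only 55 and 79 mature DCs were found in the libraries labelled siFXR1-LNA.

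Epithelial/mesothelial cells, in which tumor cells were included, had 1 member called of 10. Dusp1 had 16.0 and 11.5 CPM in siCont 1 and 2 and 36.0 and 35.4 CPM in siFXR1-LNA 1 and 2, a log2 fold change of 1.33 (SE 0.29, adjusted p = 0.0216 by edgeR). The labels did not overlap, and DESeq2 did not call the gene (1.37, adjusted p = 0.0538). The median mitochondrial share was 1.30% and 1.38% in the siCont cells and 2.79% and 4.42% in the siFXR1-LNA cells, and granulocyte markers summed to 104 and 180 CPM against 350 and 312 CPM. The part of either was not tested. Jun had 101 and 62.0 CPM against 157 and 173 CPM, with a log2 fold change of 1.00 (SE 0.27, adjusted p = 0.0506). Junb had 52.6 and 37.9 CPM in the siCont libraries, above the 24.8 and 27.1 CPM of the others, with a log2 fold change of -0.82 (SE 0.27, adjusted p = 0.0886). Egr1 had 28.7 and 18.4 CPM against 14.0 and 19.6 CPM, and Nr4a1 had 17.9 and 16.1 CPM against 13.1 and 10.9 CPM. Of the other members, Atf3, Fos and Klf6 had log2 fold changes of 1.24, 0.89 and 0.63 with labels apart, and Ier2 and Fosb of 0.34 and -0.22 with labels that overlapped. The cells of the labels again lay apart, with 547 and 77 siCont cells in a finer cluster that held 28 and 13 siFXR1-LNA cells, and 1133 and 275 siFXR1-LNA cells in another that held 17 and 5 siCont cells. Fxr1 itself was at 113 and 135 CPM against 144 and 139 CPM in these cells.

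Whether the change differed between cell types was tested for each gene as an interaction over all 10 types, with the library as a block. It passed for 6 of the 10 members, where 6.37% of all genes passed. The adjusted p by edgeR was 1.52e-05 for Nr4a1, 0.000122 for Egr1, 0.000799 for Atf3, 0.0211 for Klf6, 0.0282 for Fosb and 0.0418 for Fos. It was not passed by Jun, Junb, Ier2 and Dusp1. The macrophage sums included the finer cluster with Ace and Cd300e, which only the siCont libraries held. Relative to macrophages, the log2 change of Nr4a1 was 4.93 higher in granulocytes (adjusted p = 9.53e-08) and 2.38 higher in T cells (adjusted p = 0.00803). That of Egr1 was lower by 2.73 in epithelial/mesothelial cells (difference -2.73, adjusted p = 0.000389), and also in B cells (-2.19, adjusted p = 0.0127) and T cells (-1.98, adjusted p = 0.0173). The change of Atf3 was 1.68 higher in B cells (adjusted p = 0.0401) and 1.73 higher in T cells (adjusted p = 0.0436) than in macrophages. Klf6 differed from macrophages in mature DCs (-1.61, adjusted p = 0.0147), and Fosb, Dusp1 and Junb in epithelial/mesothelial cells (-3.15, -2.35 and -1.53). For Fos no single type differed from macrophages past the threshold.

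How often several members were read in the same cell was counted after each cell had been thinned to 1000 UMIs, with shallower cells left out. Among granulocytes, 378, 634, 5363 and 4693 cells of siCont 1, siCont 2, siFXR1-LNA 1 and siFXR1-LNA 2 were deep enough, of 443, 902, 5463 and 4800. Of these, 2.91% (95% exact binomial interval 1.46 to 5.15), 9.62% (7.44 to 12.2), 13.5% (12.6 to 14.4) and 28.7% (27.4 to 30.0) carried at least 3 members. The shares were higher than in macrophages of the same library, with intervals that overlapped in siCont 1 alone. Macrophages had 1.34% (1.01 to 1.73), 2.85% (2.17 to 3.67), 7.995% (7.17 to 8.89) and 10.6% (9.64 to 11.7). T cells had 0.222% (0.0721 to 0.517), 0.422% (0.193 to 0.800), 3.36% (2.32 to 4.68) and 3.67% (2.67 to 4.91). In each of the 3 types both libraries labelled siFXR1-LNA lay above both labelled siCont. The intervals cover counting error only.

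Erythrocytes, which should lack these transcripts, were used as a rough measure of free RNA. Erythrocyte markers stood at 576100 and 792100 CPM in siCont erythrocytes and at 216300 and 181600 CPM in siCont T cells. In siFXR1-LNA 1 and 2 they stood at 214500 and 625300 CPM against 75580 and 38270 CPM. Erythrocytes thinned to 1000 UMIs thus left less room for other genes, and their shares give a low estimate of free RNA. At 1000 UMIs, 0.0144% of 20867 and 0.0131% of 15269 siCont erythrocytes carried at least 3 members, while 0 of 14 and 0 of 49 siFXR1-LNA erythrocytes did, which allows shares of up to 21.4% and 6.12% by a floor of 3 counts (exact binomial upper limits 23.2% and 7.25%). Fos was read in 0.666% and 0.328% of the thinned siCont erythrocytes and in 0.621% and 0.516% of the thinned siCont T cells. These shares cannot show whether Fos in siCont T cells was above free RNA, since hemoglobin took much of the erythrocyte UMIs. Fos was read in 4.68% and 4.09% of the thinned siFXR1-LNA T cells. Beside them were 1 of 14 and 1 of 49 thinned siFXR1-LNA erythrocytes (7.14% and 2.04%), too few to compare. Without thinning Fos was read in 1.13%, 0.992%, 9.11% and 7.43% of T cells and in 1.17%, 0.747%, 5.00% and 1.72% of erythrocytes. Without thinning, cells with at least 3 members made up 5.42%, 22.8%, 37.1% and 61.9% of granulocytes, 24.7%, 59.5%, 59.5% and 72.2% of macrophages, and 1.81%, 3.38%, 8.91% and 12.8% of T cells, in the same order of libraries. The unthinned cells had median depths of 1415 to 2115 UMIs in granulocytes, 4917 to 8527 in macrophages and 1899 to 2528.5 in T cells, against 1196.5 to 2852 in erythrocytes.

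**Figure D4:**
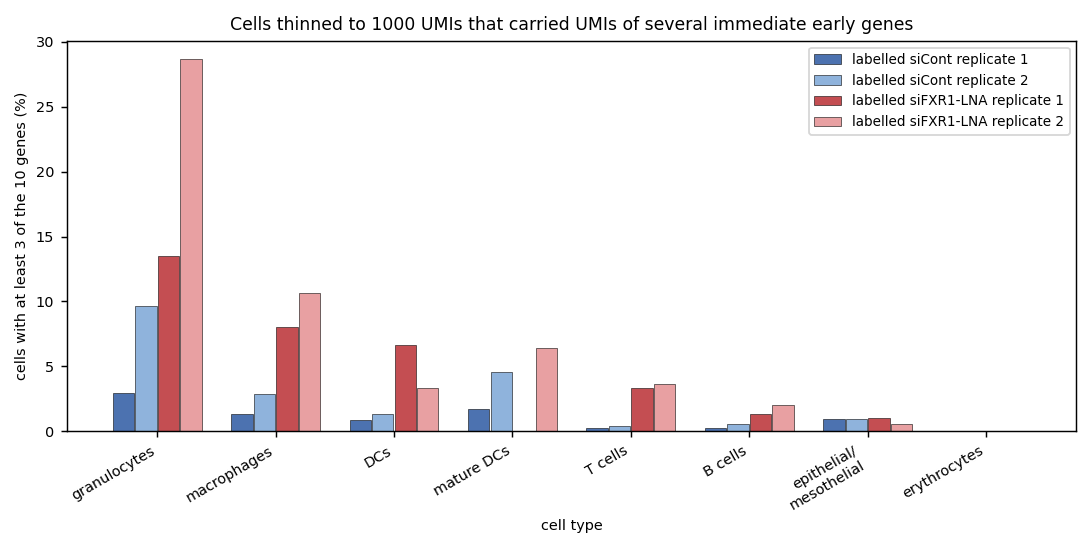
Share of cells thinned to 1000 UMIs that carried UMIs of at least 3 of the 10 genes (vertical axis, percent) by cell type (horizontal axis), 1 bar per library, blue for siCont and red for siFXR1-LNA. The share reaches 28.7% in granulocytes of siFXR1-LNA replicate 2 and stays near 0 in erythrocytes.

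Other genes of these pathways were taken from lists. Of 24 other immediate early genes, 8 rose and 1 fell among 23 tested in macrophages, 6 rose among 21 in DCs, 4 among 22 in granulocytes, 3 among 19 in epithelial/mesothelial cells and 1 among 20 in T cells, while 2 rose and 1 fell among 18 in mature DCs and none of 19 passed edgeR's test in B cells, where 6 had an unadjusted p under 0.05. The median log2 fold change of this list in macrophages was 0.47, beside 0.01 over all genes, and that of the 10 members was 1.34. Fosl1, an AP-1 subunit, went from 0.402 and 0.178 CPM in siCont 1 and 2 to 14.8 and 17.7 CPM in siFXR1-LNA 1 and 2 in macrophages (log2 fold change 5.91, adjusted p = 0.00483 by edgeR). Ier3, which restrains cell death, went from 56.7 and 59.6 CPM to 558 and 506 CPM (3.38, adjusted p = 0.00402). Neither gene overlapped between the labels. The single fall was that of Klf2, a zinc finger factor named here after its value was seen, with 475 and 643 CPM against 174 and 214 CPM (-1.35, adjusted p = 0.0218). In mature DCs Ier3 (2.49) and Fosl2 (2.11) rose and Arc (-1.22) fell. In granulocytes the largest rises of this list were those of Dusp2 (3.87), Maff (2.87), Egr3 (2.75) and Klf4 (2.50). In DCs Nr4a2 (2.72), Maff (2.41), Ier3 (2.38) and Nfkbia (1.89) led, and in T cells Maff (3.42) alone passed. Klf4 (2.21), Maff (1.90) and Myc (1.33) rose in epithelial/mesothelial cells. Myc, 1 of the 3 in epithelial/mesothelial cells, is also carried by the tumor cells as a transgene.

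Atf3 is also a target of the integrated stress response, in which Atf4 is translated when general translation falls. Of 9 genes of this response, 7 rose among 9 tested in macrophages, 5 of 9 in epithelial/mesothelial cells, 2 of 8 in DCs and 1 of 9 each in T cells and granulocytes. None fell past the threshold in any type tested, and none of 9 passed edgeR's test in B cells, where 7 had an unadjusted p under 0.05. Trib3, a pseudokinase induced by this response, went in epithelial/mesothelial cells from 6.44 and 5.74 CPM in siCont 1 and 2 to 68.3 and 54.9 CPM in siFXR1-LNA 1 and 2 (log2 fold change 3.34, adjusted p = 0.000584 by edgeR). It also rose in macrophages (4.07), granulocytes (3.65) and T cells (3.41). Ppp1r15a, which encodes the phosphatase subunit that ends the response, rose in macrophages (2.31), DCs (2.09) and epithelial/mesothelial cells (1.60).

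Of 10 heat shock and dissociation genes, Hspb1 (2.26) and Hspa1a (1.69) rose and Hsph1 (-0.96) and Dnaja1 (-0.53) fell in macrophages. Hspa8 fell in mature DCs (-1.25), Hspb1 rose in plasmacytoid DCs (3.21, from 5 and 0 UMIs against 14 and 26 UMIs), and no gene of this list passed in the other types. Of 16 kinases and transcription factors that act on these promoters, Elk3 (0.58) and Mapk3 (0.47) rose in macrophages, where 18.1% of all genes were called, and none passed elsewhere. The median log2 fold change of the latter list in macrophages was 0.10, and that of the heat shock list was 0.04.

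Across 45 sums of a cell type in a library, each member was correlated with the mean of the other 9 after log2(CPM + 1) and scaling. Pearson's r ran from 0.37 for Ier2 and Egr1 to 0.74 for Jun and Atf3. These sums share libraries and the label, so r is a description. Over the 23 sums labelled siCont alone r was 0.37 for Egr1 and 0.68 for Jun, and over the 22 labelled siFXR1-LNA it was 0.34 and 0.66. Among 6646 other genes with a mean of at least 20 CPM, the 10 whose level was most like the mean of the members were Nfkbia (r = 0.82), Slc16a3 (0.81), Slc7a11 (0.80), Picalm (0.79), Ccrl2 (0.79), Fbxl5 (0.78), Pgk1 (0.78), Clec4e (0.77), App (0.77) and Irak3 (0.77). Of these, only Nfkbia belonged to a list named above.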

How the data were processed

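For each library the authors deposited UMI counts per gene and barcode, not normalized, made with Cell Ranger 7.0.0 on mm10 per the labels (the study's methods name another release). The study left 1 library labelled siFXR1-LNA out of its own analysis because it had fewer reads and cells, without naming which replicate it was. All 4 were used here. The study's cell filter was used (100 to 4800 genes, no more than 15% of UMIs mitochondrial), and the cells were clustered in Seurat 5.3.0 (R 4.3.3; 10000 counts per cell, 2000 variable genes, 50 components, resolution 0.1, no integration). Clusters were named from marker lists, needing 3 markers raised 2 times in at least 5% of cells, and each named type was clustered again. Finer clusters with 80% of another type's markers raised were left unnamed. The naming rule was revised after the clusters had been seen, and the members and lists were chosen with earlier results of these data known. Any member may be named in any type, and of each list at most 4 genes past the threshold per type. Count sums per type and library were tested with edgeR 4.0.16 (TMM, filterByExpr, quasi-likelihood, Benjamini-Hochberg, threshold 0.05), tested on simulated data. Alternatives included DESeq2 1.42.0, Scrublet in scanpy 1.11.5 with the top 5% of scores left out, and other filters, names and resolutions. Doublets otherwise stayed in. Replicate numbers were not known to pair the libraries, and deviations of same-numbered libraries correlated from -0.26 in epithelial/mesothelial cells to 0.539 in granulocytes, over 2 pairs.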

Additional observations from a re-analysis of the deposited data

Results flagged for a closer look

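For 6 members the difference between the labels was not the same in all cell types by a test of that difference itself, edgeR's interaction of cell type and label. The adjusted p was 1.52e-05 for Nr4a1, which was higher under the label siFXR1-LNA in granulocytes (72.8 and 119 CPM against 7.64 and 3.99 CPM) and lower in macrophages (8.39 and 9.97 CPM against 14.8 and 25.3 CPM). In the finer macrophage cluster led by Cmklr1 and Alox15 the log2 fold change of Nr4a1 was -0.05 (adjusted p = 0.978 by edgeR). The macrophage sums also held a finer cluster with Ace and Cd300e, found in the siCont libraries alone. The adjusted p of the interaction was 0.000122 for Egr1, whose fitted log2 fold change was 3.27 in granulocytes and 0.07 in B cells, and 0.000799 for Atf3, with 2.99 in T cells and -0.93 in mature DCs. It was 0.0211 for Klf6, which passed the threshold in mature DCs alone (-1.21) and had -0.34 in DCs and 0.52 in B cells, 0.0282 for Fosb, with 4.27 in T cells and -0.22 in epithelial/mesothelial cells, and 0.0418 for Fos, with 4.18 in mature DCs and 0.89 in epithelial/mesothelial cells.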

How the results depend on the processing

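The count of members past the threshold depended on the test, and some fold changes depended on single libraries. The share of all genes past it, given in brackets for fits on all libraries, moved with these settings as well. With no filter on low counts the count was 5 in B cells (5.77%), 4 in DCs (8.2%), 5 in T cells (4.53%) and 3 in epithelial/mesothelial cells (7.83%). It was 0 in granulocytes (0%), 8 in macrophages (17.6%) and 1 in mast cells (0.383%). DESeq2 gave 3 in B cells (3.21%), 2 in DCs (4.44%), 5 in T cells (2.92%) and 8 in macrophages (21.5%). With the replicate number as a block (replicate block) it was 5 in B cells (7.64%), 4 in DCs (9.82%) and 5 in T cells (5.11%). It was 4 in epithelial/mesothelial cells (10.1%), 7 in granulocytes (9.13%) and 8 in macrophages (26.6%). The crossed pairing, added after seeing the data, gave 2 in epithelial/mesothelial cells (8.14%). With it Fos in DCs no longer passed (log2 fold change 1.66, adjusted p = 0.0503 by edgeR). Dusp1 newly passed in DCs (2.18, adjusted p = 0.0276) and in T cells (2.11, adjusted p = 0.0496). The shares of all genes were 1.2% in DCs and 0.76% in T cells. With each cell named from its own markers the count was 0 in DCs (0.812%), 1 in T cells (0.909%) and 3 in epithelial/mesothelial cells (11.1%). It was 2 in erythrocytes (4%) and 1 in mast cells (2.51%). Nr4a1 in T cells then turned from 1.53 to -0.62, with adjusted p-values by edgeR of 0.356 and 0.817. Without the top Scrublet scores the count was 0 in DCs (1.82%) and 2 in epithelial/mesothelial cells (7.3%). The latter also had 2 with DESeq2 size factors (7.31%), with the lists left out of the clustering (7.42%) and without hemoglobin in the totals (7.39%). Fits without 1 library leave 1 library under a label, so no counts are given for them here. Across these fits the log2 fold change of Dusp1 ran from 0.69 to 4.57 in granulocytes and from 2.08 to 4.72 in macrophages. That of Egr1 in macrophages ran from 2.12 to 2.24. Finer clusters alone, also added later, gave 0 in macrophage cluster 3 (0%), 0 in granulocyte cluster 1 (0.561%), 1 in T cell cluster 2 (1.1%) and 3 in B cell cluster 1 (16.4%). The cause of these shifts was not tested. For single members with a call or a log2 fold change of at least 1 in size, 485 values stayed on their side of the threshold, 81 newly passed, 22 no longer passed and 1 changed sign. For the genes named from the other lists, 544 values stayed and 118 no longer passed. The interaction called 6 members with at least 500 genes per cell (8.05% of all genes) and 5 without TMM (5.17%). Without TMM the median of all genes lay at -0.18 in macrophages, 0.24 in granulocytes, 0.19 in B cells and 0.16 in T cells on the log2 scale.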

Other observations

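The shallow unnamed cluster led by Sprr1a and Cldn3 was nearly confined to the libraries labelled siFXR1-LNA, with 41026 and 5396 cells there and 52 and 45 cells in siCont 1 and 2, and was not tested since it stayed unnamed. In siCont 1 and 2 its cells held 5 and 4 UMIs of Jun (66.3 and 54.3 CPM), 0 and 3 of Dusp1, 0 and 11 of Fos and 1 and 2 of Egr1. In siFXR1-LNA 1 and 2 these cells had 149 and 82.4 CPM of Jun, 55.4 and 54.6 CPM of Dusp1, 39.5 and 28.7 CPM of Fos and 11.4 and 11.5 CPM of Egr1. In the granulocytes of the same libraries Egr1 was at 120 and 200 CPM. NK cells were too few to be tested, with 5 and 10 cells under the label siFXR1-LNA, and in the 73 and 55 NK cells of siCont 1 and 2 Junb had 63.9 and 79.4 CPM from 15 and 21 UMIs.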
